A study of Homo sapiens with 6 samples.

Results

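MYC network genes encode the MYC transcription factors and the basic helix-loop-helix leucine zipper proteins that share their partners. The 10 genes described here were chosen by name, as the MYC family (*MYC*, *MYCN*, *MYCL*), their obligate partner *MAX*, the repressor partners of MAX (*MXD1*, *MXI1*, *MXD3*, *MXD4*, *MNT*) and the MAX-like partner *MLX*. All 10 genes were found among the 67060 human genes of the count table and all 10 passed the filter on low counts, which left 24500 genes for testing. The cells were SH-SY5Y, a line grown from a human neuroblastoma. The control cells were infected with an adenovirus that expresses GFP (Ad CMV GFP) and the other cells with an adenovirus that expresses mouse *Esrrg* with a 3xFlag tag (Ad CMV 3xFlag-*Esrrg*). In both viruses the CMV promoter drives the transgene in every cell that is infected, whatever its type. RNA was taken after 24 h, and each group has 3 libraries, which the labels number as replicates 1, 3 and 4 (Ad CMV GFP) or 2, 3 and 4 (Ad CMV 3xFlag-*Esrrg*). All libraries come from 1 cell line and none from uninfected cells, and nothing in the labels says that the libraries are separate cultures, so p-values measure the spread between these samples, which may be technical. In bulk RNA of this kind, fewer expressing cells and less RNA per cell cannot be told apart.

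MYC proteins bind DNA as dimers with MAX at E-box sequences and activate genes for ribosome assembly, metabolism and cell growth. MXD proteins and MNT pair with MAX at the same sequences and recruit corepressors, and MLX pairs with some of them and with the glucose-sensing factors encoded by *MLXIP* and *MLXIPL*. In neuroblastoma, amplification of *MYCN* marks aggressive tumours, and SH-SY5Y is known as a line without that amplification, in which *MYC* is the main family member.

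Reads counted on genes ranged from 24969759 to 29700980 per library with Ad CMV GFP and from 26513620 to 40859666 with Ad CMV 3xFlag-*Esrrg*. Reads that the counting assigned to no gene made up 51.3% to 52.2% of the reads with Ad CMV GFP, and 46.6%, 31.6% and 29.5% in Ad CMV 3xFlag-*Esrrg* replicates 2, 3 and 4, so that replicate 2 stood apart from the others of its group. Counts on the human gene *ESRRG* were higher with Ad CMV 3xFlag-*Esrrg* (log2 fold change 3.02, with a standard error, SE, of 0.14). They were at 6.55, 8.88 and 8.94 times the control mean in replicates 2, 3 and 4. The transgene is mouse *Esrrg* and the genome build was human, so reads of the transgene may be counted on *ESRRG*. Their part was not tested, and the value does not show a rise of the cells' own gene. A call required a fold change of 1.5 or more together with an edgeR quasi-likelihood p below 0.05 after Benjamini-Hochberg adjustment. By that rule 34.1% of the 24500 tested genes were called, 17.3% as higher and 16.8% as lower, and 50.7% of the called genes were higher. With library size as the only scaling the called genes were 22.5% higher, and with DESeq2 they were 62.8% higher. Of 8 noradrenergic neuroblastoma markers, 7 had more than 3 counts in every library and *TH* had 0 counts in all. Their summed level was 643 to 700.2 CPM (counts scaled to a common library size) with Ad CMV GFP and 498 to 657 CPM with Ad CMV 3xFlag-*Esrrg*. The 6 mesenchymal markers had more than 3 counts in every library and summed to 3667 to 3805 CPM and 3357 to 3597 CPM. Of the markers tested, 3 of 6 mesenchymal ones were called lower. Of 7 noradrenergic ones, 1 was called higher and 2 lower, and of 4 Schwann ones 1 was called lower. Schwann markers summed to 4.28 to 6.95 CPM over all libraries, epithelial ones to 1.43 to 2.52 CPM with *KRT5* and *KRT14* at 0, and leukocyte ones to 0.423 to 0.786 CPM with *CD3E* at 0. The part of any of these in the results below was not tested.

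Of the 10 genes, *MYC* and *MLX* rose with Ad CMV 3xFlag-*Esrrg*, by 2.35-fold and 1.97-fold, and *MYCN* fell from a level that was already close to the limit of detection. The other 7 genes were not called. The calls were 2 of 10 genes higher, beside 17.3% of all tested genes, and 1 of 10 lower, beside 16.8%. For 5 of the 10 genes every library of a group lay on the same side of the other group, which 58.1% of all tested genes also showed. Their median log2 fold change was 0.065, beside -0.10 for all tested genes and 0.12 for the protein-coding ones. Of the protein-coding genes 25.9% were called higher and 12.4% lower. These shares are near those of all tested genes, so what follows describes single genes and not the network as a group.

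**Figure D1:**
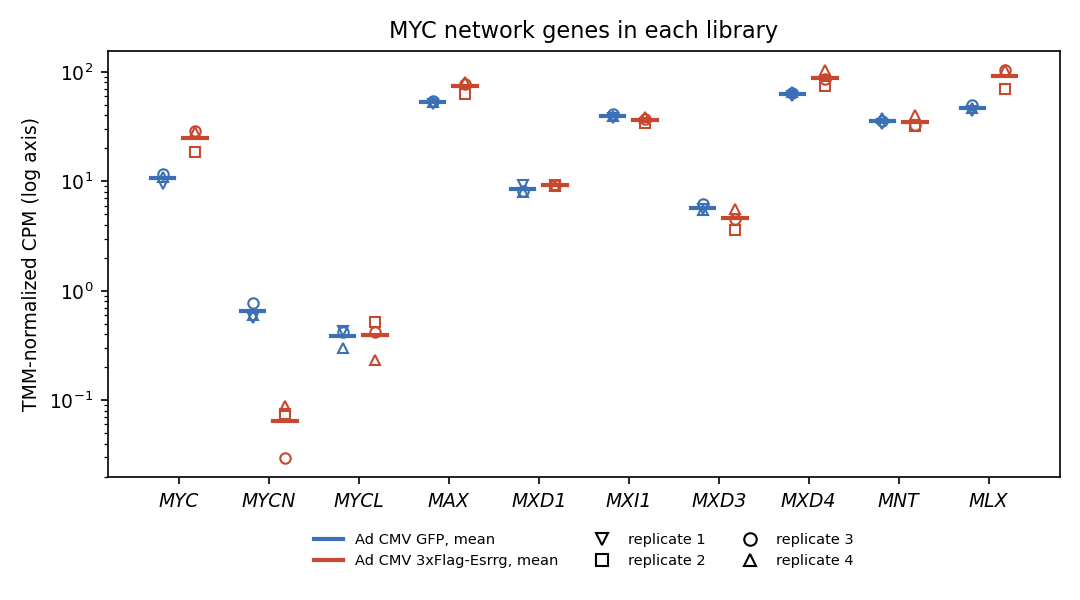
Level of each network gene in each of the 6 libraries, in TMM-normalized CPM on a log axis, with a bar at the mean of each group (n = 3) and a marker shape for each replicate number. The libraries of the groups are apart for *MYC*, *MYCN*, *MAX*, *MXD4* and *MLX*, and Ad CMV 3xFlag-*Esrrg* replicate 2 (squares) is nearest to the controls for *MYC*, *MAX*, *MXD4* and *MLX*.

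*MYC* (ENSG00000136997, on chromosome 8) was counted 268, 360 and 365 times in replicates 1, 3 and 4 of Ad CMV GFP and 491, 961 and 970 times in replicates 2, 3 and 4 of Ad CMV 3xFlag-*Esrrg*. Normalized for depth and composition, the level was 9.51, 11.6 and 11.0 CPM in the controls and 18.4, 28.5 and 28.5 CPM with Ad CMV 3xFlag-*Esrrg*. The groups did not overlap, and replicate 2 lay between the controls and the other libraries of its group. The mean was 10.7 ± 1.10 CPM (SD, n = 3) with Ad CMV GFP and rose to 25.1 ± 5.86 CPM (SD, n = 3) when *Esrrg* was expressed. This is a log2 fold change of 1.23 (SE 0.17, edgeR quasi-likelihood adjusted p = 2.7e-04). Replicates 2, 3 and 4 were at 1.71, 2.66 and 2.65 times the control mean. Replicate 2 was also the lowest of its group for *ESRRG* and had the highest share of reads assigned to no gene. With that share as a covariate the log2 fold change was 0.57, below the 1.5-fold cutoff (edgeR quasi-likelihood adjusted p = 0.0031, the highest over all alternatives). The lowest, 1.5e-37, came from edgeR's quasi-likelihood test with a block for replicate number and a GC and length correction. In fits with that block the fold change rests on replicates 3 and 4 of each group alone. Because the share differs between the groups, its part in the rise and that of the transgene cannot be told apart. Without replicate 2 the log2 fold change was 1.52.

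*MYCN* (ENSG00000134323, chr2:15940550-15947007 on the plus strand of GRCh38), the family member that is amplified in many neuroblastomas, was counted 16, 24 and 20 times in replicates 1, 3 and 4 of Ad CMV GFP. Only 2, 1 and 3 counts remained in replicates 2, 3 and 4 of Ad CMV 3xFlag-*Esrrg*. A single read is worth between 0.0293 and 0.0374 CPM here, so the levels of 0.568 to 0.776 CPM in the controls and 0.0297 to 0.0880 CPM in the others rest on few reads. The groups did not overlap. Summed over the libraries, 60 counts stood against 6, where the control rate gives 61.5, a level 10.2 times as high in the controls (exact 95% counting interval 4.44 to 29.0, which covers counting error only). edgeR's quasi-likelihood test called the gene lower (adjusted p = 2.9e-04), and it stayed called without any 1 of the libraries. The gene is removed by a filter of at least 10 counts in every library. *MYCNOS*, an RNA transcribed from the opposite strand at the *MYCN* locus that shares 3.56% of the *MYCN* exon bases, had 5, 2 and 7 counts in the controls and 0 in each of the others. These 14 counts against 0 did not pass the filter and were not tested, and the exact 95% counting interval of the ratio of the controls to the others begins at 3.40. The library kit kept strand, but the strand setting of the counting is not given in the sources used here, so reads of the overlapping stretch cannot be assigned to either gene.

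*MYCL* (ENSG00000116990, chr1:39895428-39902256, minus strand), the family member first found amplified in lung cancer, was the lowest of the family in the controls. It had 12, 13 and 10 counts with Ad CMV GFP and 14, 14 and 8 counts with Ad CMV 3xFlag-*Esrrg*, and the groups overlapped. The log2 fold change was 0.015 with a 95% interval from -0.84 to 0.87, so that a change of 1.5-fold in either direction was not detectable at these counts. Its sign turned under 8 of the 17 alternatives that gave it a value.

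The family can be compared within a library per length of its exons. *MYC* made up 84.2%, 83.9% and 86.6% of the summed CPM per kb of the 3 family members in Ad CMV GFP replicates 1, 3 and 4. It made up 95.8%, 98.0% and 98.3% in Ad CMV 3xFlag-*Esrrg* replicates 2, 3 and 4. By these counts *MYC* was thus by far the most abundant family transcript in every library. Its share was larger in each Ad CMV 3xFlag-*Esrrg* library than in each control. The shares rest on at most 24 counts per library for *MYCN* and *MYCL*. A count near 0 in this table does not show that a gene is silent, as described below for *FBL* and *LDHA*.

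*MAX* (ENSG00000125952, chr14:65006174-65102695, minus strand) encodes the partner that MYC, MXD proteins and MNT need to bind DNA. Its level was 50.8, 54.3 and 52.6 CPM with Ad CMV GFP and 62.9, 77.2 and 80.4 CPM with Ad CMV 3xFlag-*Esrrg* replicates 2, 3 and 4. The groups did not overlap, with replicate 2 nearest to the controls. The log2 fold change was 0.48 (SE 0.11, edgeR quasi-likelihood adjusted p = 0.0041), which passed the test and missed the 1.5-fold cutoff. Without Ad CMV 3xFlag-*Esrrg* replicate 2 it was 0.69 and the gene was called higher. Exons of *FNTB* and its read-through gene *CHURC1-FNTB* on the opposite strand are among those that cover 16.1% of its exon bases. With the share of reads assigned to no gene as a covariate the log2 fold change of *MAX* was 0.15 (edgeR quasi-likelihood adjusted p = 0.35, the highest over the alternatives). The lowest adjusted p of that test was 1.4e-10, with the replicate block.

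*MLX* (ENSG00000108788, chr17:42567072-42573239, plus strand) encodes the partner of the MLXIP and MLXIPL proteins and of some MXD proteins and MNT. It had 44.02, 49.4 and 47.0 CPM with Ad CMV GFP and 70.4, 103 and 104 CPM with Ad CMV 3xFlag-*Esrrg* replicates 2, 3 and 4. No control library reached the lowest library of the other group. The mean rose from 46.8 ± 2.696 CPM to 92.3 ± 19.03 CPM (SD, n = 3 each), with a log2 fold change of 0.98 (SE 0.14, edgeR quasi-likelihood adjusted p = 3.7e-04). With the share of reads assigned to no gene as a covariate the log2 fold change was 0.41 (edgeR quasi-likelihood adjusted p = 0.0039, where the range over the alternatives was 1.5e-38 to 0.0039), below the cutoff. Exons of *PSMC3IP* on the opposite strand cover 18.2% of its exon bases.

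Of the MXD genes, whose proteins compete with MYC for MAX, none was called in either direction. *MXD4* (ENSG00000123933), an MXD gene linked to differentiated cells, had 60.6, 63.95 and 65.1 CPM with Ad CMV GFP and 74.6, 86.6 and 103 CPM with Ad CMV 3xFlag-*Esrrg*. The groups were apart and the log2 fold change of 0.48 (SE 0.12, edgeR quasi-likelihood adjusted p = 0.0075) passed the test but missed the 1.5-fold cutoff. It was 0.69, and called higher, without Ad CMV 3xFlag-*Esrrg* replicate 2, and 0.069 (edgeR quasi-likelihood adjusted p = 0.43) once GC content and gene length were corrected for. Over the alternatives the adjusted p ran from 1.2e-10, with the replicate block, to 0.57. *MXD3* (ENSG00000213347), which unlike its relatives is linked to dividing cells, had 5.60, 6.14 and 5.47 CPM with Ad CMV GFP and 3.59, 4.55 and 5.63 CPM with Ad CMV 3xFlag-*Esrrg*, with overlap. Its log2 fold change was -0.32 with a 95% interval from -0.71 to 0.078. It was called lower under 4 alternatives, with log2 fold changes of -0.65 when scaled by library size alone, -0.85 with the GC and length correction, -0.82 with the replicate block added to it and -0.87 with the share of reads assigned to no gene as a covariate. Exons of *RAB24* and *PRELID1* cover part of this gene, 19.5% of its exon bases on the same strand and 24.2% on the opposite strand.

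*MXD1* (ENSG00000059728), which is induced as cells leave the cycle, was at 8.04 to 9.22 CPM with Ad CMV GFP and 9.10 to 9.28 CPM with Ad CMV 3xFlag-*Esrrg*. *MXI1* (ENSG00000119950), the second member of the group, was at 38.2 to 41.4 CPM and 34.3 to 38.4 CPM. *MNT* (ENSG00000070444), the broadly expressed antagonist of MYC, was at 33.4 to 38.0 CPM and 31.8 to 40.7 CPM. The groups overlapped for all 3 genes. Their log2 fold changes were 0.12 for *MXD1* (95% interval -0.14 to 0.38), -0.12 for *MXI1* (-0.32 to 0.085) and -0.019 for *MNT* (-0.27 to 0.24), so that each interval stayed within 1.5-fold in this fit. Other processing moved *MNT* to -0.48 with the GC and length correction and to -0.57 with the replicate block added, and *MXI1* to -0.44 when scaled by library size alone, and these values passed the test below the fold cutoff. The sign turned with the processing for each of them: *MXD1* was -0.20 when scaled by library size alone, *MXI1* 0.034 without Ad CMV 3xFlag-*Esrrg* replicate 2 and *MNT* 0.077 with DESeq2.

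**Figure D2:**
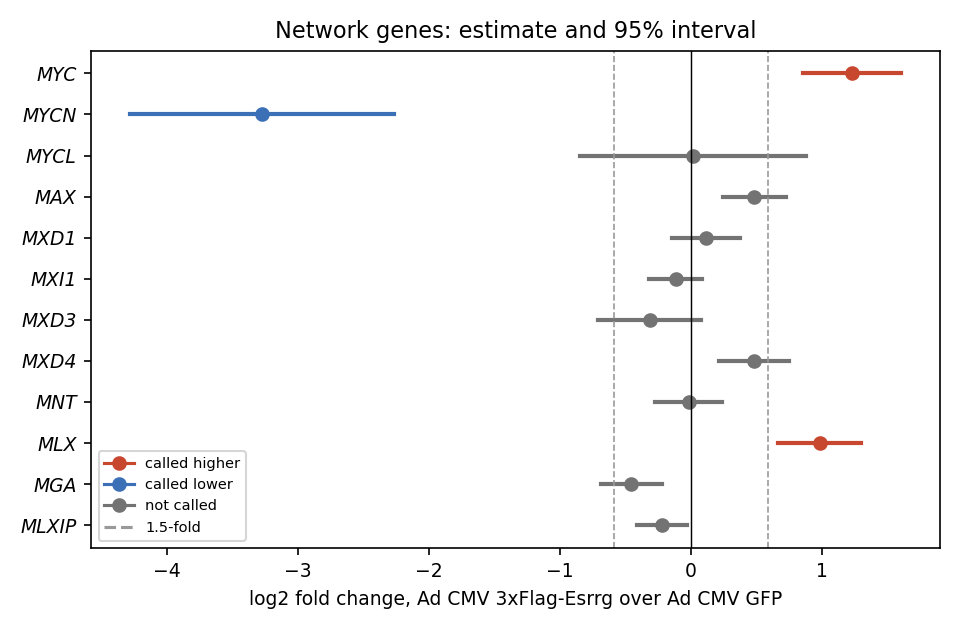
Log2 fold change of each network gene and of *MGA* and *MLXIP* (points) with its 95% interval (lines), from edgeR's fit over all tested genes, 3 libraries per group. Dashed lines mark a fold change of 1.5, and *MYC*, *MLX* and *MYCN* are the genes called.

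The further partners *MGA*, *MLXIP* and *MLXIPL* were not called as reported, and *MGA* and *MLXIP* were called lower under some alternatives. *MGA*, which encodes a large MAX partner found in a repressor complex, had 233, 196 and 205 CPM with Ad CMV GFP and 165, 155 and 143 CPM with Ad CMV 3xFlag-*Esrrg* replicates 2, 3 and 4, without overlap. Its log2 fold change was -0.46 (SE 0.11, edgeR quasi-likelihood adjusted p = 0.0049), short of the 1.5-fold cutoff. It was called lower at -0.77 when scaled by library size alone, at -0.59 when fitted on protein-coding genes and without a fold cutoff, and was at -0.20 with the GC and length correction. *MLXIP*, which encodes MondoA, had 33.3, 33.3 and 34.5 CPM and 29.1, 28.5 and 29.1 CPM, a log2 fold change of -0.22 (edgeR quasi-likelihood adjusted p = 0.056). *MLXIP* was called lower at -0.64 once GC content, length and the replicate block were all fitted. *MLXIPL*, which encodes ChREBP, had 11, 5 and 10 counts against 3, 5 and 3 counts and did not pass the filter. The targets fixed for these factors were *TXNIP*, an inhibitor of glucose uptake, with 4036, 4604 and 5130 counts against 2424, 4261 and 4746, and its relative *ARRDC4*, with 207, 211 and 215 counts against 107, 109 and 114. *ARRDC4* was called lower (log2 fold change -0.97, SE 0.15), and *TXNIP* was not (-0.33, edgeR quasi-likelihood adjusted p = 0.083).

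Per length, the order of the 10 genes in the control libraries was *MLX* (11.0 ± 0.634 CPM per kb of exon, SD, n = 3), *MXD4* (9.20 ± 0.339), *MAX* (8.40 ± 0.284), *MXI1* (6.73 ± 0.270), *MNT* (4.09 ± 0.265), *MYC* (1.76 ± 0.180), *MXD1* (1.34 ± 0.101), *MXD3* (1.21 ± 0.0752), *MYCN* (0.236 ± 0.0404) and *MYCL* (0.0770 ± 0.0141). The libraries of neighbours in this order overlapped for *MXD1* and *MXD3* and for no other pair. With Ad CMV 3xFlag-*Esrrg*, *MYC* (4.11 ± 0.959) stood beside *MNT* (4.04 ± 0.561) with overlap, *MXD4* (12.8 ± 2.09) and *MAX* (11.7 ± 1.49) overlapped as well, and *MYCN* (0.0233 ± 0.0111) was below *MYCL* (0.0788 ± 0.0294). *MLX* stayed first at 21.7 ± 4.47 CPM per kb. The difference between the groups on a per-length scale depended on the scaling. In TPM, which sets every library to the same total per length, the mean of *MAX* was 30.1 with Ad CMV GFP and 26.8 with Ad CMV 3xFlag-*Esrrg*, and that of *MXD4* 32.9 and 29.2, the opposite direction to CPM per kb. *MYC* was at 6.27 and 9.22 TPM and *MLX* at 39.4 and 48.9 TPM, higher by less than in CPM per kb. Exon lengths came from an annotation that may differ from that of the counting, and transcripts that use only part of the exons make a gene look lower on this scale.

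On the same scale, the summed MYC family was 0.0849, 0.0989 and 0.0908 times the sum of the MXD genes and *MNT* in Ad CMV GFP replicates 1, 3 and 4. The ratio was 0.139, 0.190 and 0.164 in Ad CMV 3xFlag-*Esrrg* replicates 2, 3 and 4, above every control. The sum of the MXD genes and *MNT* was 2.65 to 2.73 times the *MAX* level in the controls and 2.03 to 2.24 times in the others. In every library the counted transcripts of the MAX-binding repressors thus outnumbered those of the MYC family per length, and the margin was smaller with Ad CMV 3xFlag-*Esrrg*. These are transcript levels and say nothing of protein.

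**Figure D3:**
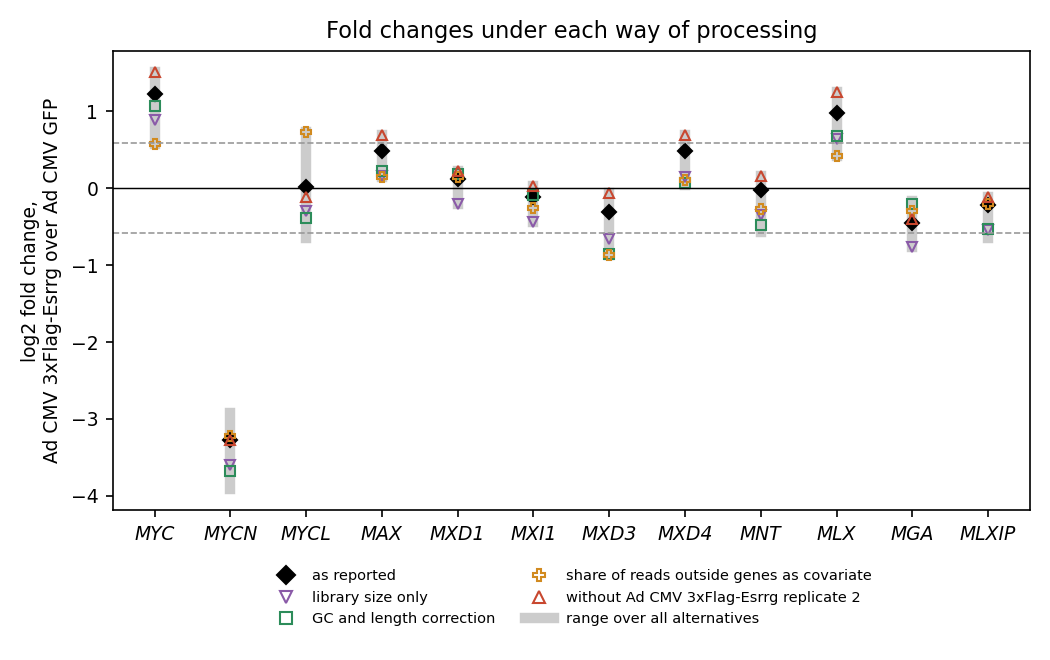
Log2 fold change of each network gene, *MGA* and *MLXIP* as reported (filled diamonds) and under 4 of the alternatives (open symbols), with the range over all alternatives as a grey bar. The called genes *MYC*, *MLX* and *MYCN* keep their sign throughout, and so do *MAX*, *MXD3*, *MXD4*, *MGA* and *MLXIP*, which were not called. The share of reads assigned to no gene as a covariate puts *MYC* at 0.57 and *MLX* at 0.41, below the dashed line at 1.5-fold.

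Scaling moved the median of all tested genes from -0.10 to -0.42 when library size alone was used. Relative to the median of the same fit, *MYC* was 1.33 higher as reported and 1.31 higher with library size only, and *MLX* 1.09 and 1.06 higher, on the log2 scale. A change of scaling shifts all genes nearly alike, so the likeness of these values is no test. Over all fits the difference ran from 0.56 to 1.56 for *MYC* and from 0.40 to 1.29 for *MLX*. Both were lowest with the share of reads assigned to no gene as a covariate. The 5 genes whose profile over the 6 libraries was most like that of *MYC* were *CCT3*, a subunit of a cytosolic chaperonin, *MTCH1*, a protein of the mitochondrial outer membrane, *STIP1*, a cochaperone, *HCCS*, which attaches heme to cytochrome c, and *PGD*, an enzyme of the pentose phosphate pathway. Their log2 CPM, centred on the control mean, lay within a root mean square distance of 0.0153 to 0.0266 of the *MYC* profile, the closest of 16101 other genes of at least 50 mean counts. Their own log2 fold changes were 1.21 to 1.24. The likeness is a description over 6 libraries.

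Promoter windows from RefSeq on GRCh38.p14, from 250 bases before to 50 bases after each annotated start, were matched by symbol for 9 of the 10 genes, as 12 windows. The *MYC* window was not used here. The E-box CACGTG, the palindromic core sequence bound by MYC-MAX and by MXD-MAX and MLX dimers, was found in 3 of the 12 windows, those of *MLX*, *MXD4* and *MNT*, and in 7.26% of all 35116 windows. The sequence TNAAGGTCA, an extended form of the site that estrogen-related receptors bind, was searched on both strands and found in 0 of the 12 windows and in 0.951% of all windows. The 250 bases before the start are shown for the 3 genes with an E-box, which is in capitals, and for *MYCN*, the gene of the network that fell, which holds neither motif in its window. They lie at chr17:42566850-42567099 on the plus strand for *MLX*, chr4:2262110-2262359 on the minus strand for *MXD4*, chr17:2401061-2401310 on the minus strand for *MNT* and chr2:15940300-15940549 on the plus strand for *MYCN*.
MLX: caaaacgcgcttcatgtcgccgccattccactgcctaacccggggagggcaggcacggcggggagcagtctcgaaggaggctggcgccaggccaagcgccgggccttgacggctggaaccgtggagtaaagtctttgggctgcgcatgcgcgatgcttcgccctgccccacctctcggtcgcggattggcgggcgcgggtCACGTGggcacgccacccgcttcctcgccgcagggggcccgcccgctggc
MXD4: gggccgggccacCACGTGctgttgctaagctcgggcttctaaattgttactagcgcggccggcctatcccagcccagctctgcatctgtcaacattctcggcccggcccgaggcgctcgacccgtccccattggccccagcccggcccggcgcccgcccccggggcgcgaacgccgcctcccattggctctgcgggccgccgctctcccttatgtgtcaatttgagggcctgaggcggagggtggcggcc
MNT: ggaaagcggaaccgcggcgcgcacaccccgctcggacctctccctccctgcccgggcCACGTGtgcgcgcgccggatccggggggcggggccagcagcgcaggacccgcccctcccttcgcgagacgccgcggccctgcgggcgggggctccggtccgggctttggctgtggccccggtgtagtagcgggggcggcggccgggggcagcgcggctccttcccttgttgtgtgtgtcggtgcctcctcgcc
MYCN: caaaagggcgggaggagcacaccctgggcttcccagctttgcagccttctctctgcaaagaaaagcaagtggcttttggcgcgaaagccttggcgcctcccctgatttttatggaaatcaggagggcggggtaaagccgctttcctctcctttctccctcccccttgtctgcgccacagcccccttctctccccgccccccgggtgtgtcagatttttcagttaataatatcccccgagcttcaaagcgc
The E-box begins 50 bases before the start of *MLX*, 238 bases before that of *MXD4* and 193 bases before that of *MNT*. Of these 3 genes *MLX* rose, *MXD4* passed the test below the fold cutoff and *MNT* had a log2 fold change of -0.019. A match is a description of the letters in these windows and shows no binding.

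The other genes of the pathway were read from lists fixed by name, which were chosen with earlier results of these data known. Of 67 genes known to be activated by MYC, 62 were tested, and 45 of these (72.6%) rose, 0 fell and 17 were not called, with a median log2 fold change of 0.83. Among all 13746 protein-coding genes of the same fit 25.9% were called higher and 12.4% lower, and their median was 0.12. The 5 genes not tested had 0 to 3 counts in every library. They were *FBL* and *LDHA*, which nearly all cells use, and *SLC16A1*, *CCND2* and *E2F2*, so that a count near 0 in this table does not show that a gene is silent. For the 10 network genes, at most 0.266% of the 31-base words of the longest transcript also stood in alternate contigs of GRCh38. The share was 9.20% for *FBL*, 0.633% for *LDHA* and 0% for *TH*, which had 0 counts. A low share thus does not show that the reads of a gene were counted.

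Of the genes for the nucleolus and ribosome assembly, 19 of 24 tested genes were higher and 0 lower, with a median of 1.06. *MRTO4*, which acts in assembly of the large ribosomal subunit, had 789, 1149 and 1114 counts with Ad CMV GFP and 1783, 3575 and 3541 counts with Ad CMV 3xFlag-*Esrrg* (log2 fold change 1.49, SE 0.18). *RRP9* and *RRP12*, which process ribosomal RNA, had log2 fold changes of 1.45 and 1.39, and *RRS1*, a further ribosome assembly factor, one of 1.43. The classic MYC targets *NCL* (0.59), called higher, and *NPM1* (0.27, edgeR quasi-likelihood adjusted p = 0.089), not called, encode the most abundant nucleolar proteins, and were picked after their values were seen.

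Of the metabolic targets 15 of 21 tested genes were higher and 0 lower, with a median of 0.83. The glycolytic enzyme gene *ENO1* had 13821, 21142 and 21018 counts with Ad CMV GFP and 46827, 92304 and 92652 counts with Ad CMV 3xFlag-*Esrrg*, a log2 fold change of 1.996 (SE 0.20). The amino acid transporter gene *SLC7A5* had a log2 fold change of 1.83, the glycolytic *PKM* was 3.03-fold higher, and *PHB1*, which encodes a scaffold protein of the mitochondrial inner membrane, had one of 1.58. Of the targets in growth, cell cycle and translation 11 of 17 tested genes were higher and 0 lower, with a median of 0.78. *CDK4*, the kinase of the G1 phase, had 1940, 2352 and 2418 counts against 3568, 6592 and 7446 (log2 fold change 1.33, SE 0.16). *PA2G4*, a growth regulator of the nucleolus, had a log2 fold change of 1.30, *AIMP2*, a scaffold of the aminoacyl-tRNA synthetase complex, one of 1.12 and *CDC25A*, a phosphatase that activates cyclin-dependent kinases, one of 0.94. For *MRTO4*, *ENO1* and *CDK4* replicate 2 was nearest to the controls, as for *MYC*. The number of activated targets called higher was 48 without Ad CMV 3xFlag-*Esrrg* replicate 2, 27 with library size as the only scaling and 23 with the share of reads assigned to no gene as a covariate, and it was 0 for lower genes under every alternative. Among all tested genes the number called higher moved as well, from 4234 to 5820, 2200 and 1773 in the same order.

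Of 10 genes known to be repressed by MYC, 5 were called higher and 0 lower, with a median of 0.48, beside 25.9% higher, 12.4% lower and a median of 0.12 for protein-coding genes. *CDKN1A*, the inhibitor of cyclin-dependent kinases that MYC represses through ZBTB17, had 6573, 8693 and 8774 counts with Ad CMV GFP and 21907, 40503 and 45390 counts with Ad CMV 3xFlag-*Esrrg*. Its log2 fold change of 2.11 (SE 0.18) was above that of *MYC*. *NDRG2*, a differentiation gene, had a log2 fold change of 1.40, the stress gene *GADD45A* one of 1.06, *TGM2*, a transglutaminase, one of 0.97 and *THBS1*, a matrix protein that restrains vessel growth, one of 0.64. The genes not called were *CLU* (0.33), *NDRG1* (0.32), *CDKN2B* (0.16), *CDKN1B* (-0.11) and *PDGFRB* (-0.17).

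**Figure D4:**
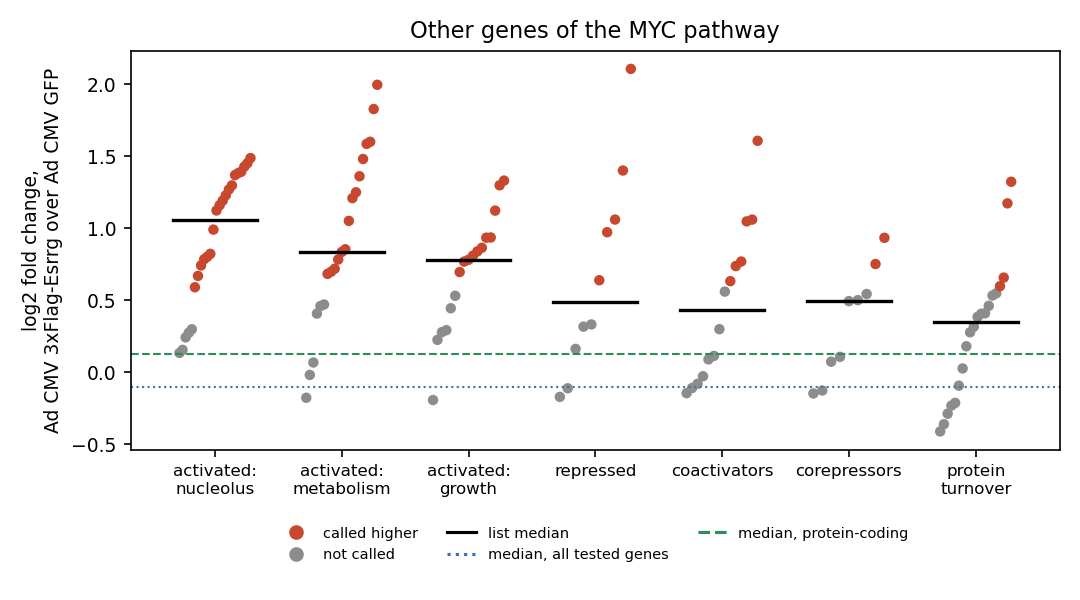
Log2 fold change of every tested gene of the pathway lists (points), sorted within each list, with the list median (black bar) and the medians of all tested genes (-0.10) and of the protein-coding ones (0.12). In none of the lists drawn was a gene called lower, and the 3 lists of activated targets have medians of 1.06, 0.83 and 0.78.

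Of 15 coactivators 14 were tested, and *SMARCB1*, with 2 to 16 counts per library, did not pass the filter. Of the 14, 6 (42.9%) were higher and 0 lower, with a median of 0.43, where 25.9% of protein-coding genes were called higher. The ATPase genes *RUVBL2* and *RUVBL1*, whose proteins bind MYC, had log2 fold changes of 1.61 and 1.06, the elongation kinase gene *CDK9* one of 1.05 and the acetyltransferase gene *KAT2A* one of 0.77. *TRRAP*, the scaffold through which MYC recruits acetyltransferases, was at 0.089 (edgeR quasi-likelihood adjusted p = 0.46). Of 9 corepressors, 2 (22.2%) were higher and 0 lower, a share near that of protein-coding genes, with a median of 0.49. These were *ZBTB17* (0.93), which encodes the MYC partner at repressed genes, and the deacetylase gene *HDAC3* (0.75). *SIN3A*, which encodes the scaffold bound by MXD proteins, was at -0.13 (edgeR quasi-likelihood adjusted p = 0.27).

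Of 20 genes that act on the stability of MYC proteins, 4 (20%) were higher and 0 lower, with a median of 0.35, below the 25.9% of protein-coding genes called higher. Among them were *STUB1* (1.17), a ubiquitin ligase, *PIM1* (0.66), a kinase that stabilizes MYC, and *AURKA* (0.60), the kinase that protects MYCN from degradation. *FBXW7*, the ubiquitin ligase subunit that recognizes phosphorylated MYC, was at 0.18 and *GSK3B*, the kinase that prepares this recognition, at -0.29, and neither was called. On leaving out 1 library the count ran from 2 without Ad CMV GFP replicate 1 or without Ad CMV 3xFlag-*Esrrg* replicate 4 to 8 without Ad CMV 3xFlag-*Esrrg* replicate 2.

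Among RNAs of the family loci, *PVT1*, the long noncoding RNA beside *MYC*, had 5122, 5361 and 6048 counts with Ad CMV GFP and 7038, 6336 and 5572 counts with Ad CMV 3xFlag-*Esrrg* replicates 2, 3 and 4. The groups overlapped in normalized level and the log2 fold change was 0.19 (edgeR quasi-likelihood adjusted p = 0.32). *PVT1* was highest in replicate 2, where *MYC* was lowest of its group. *CASC11*, which covers 3.18% of the *MYC* exon bases from the opposite strand, had 1 to 4 counts per library, *MYCL-AS1* had 0 to 3 and *MYCNUT* had 0, and none of these passed the filter. *CCAT1* had no identifier under that symbol. All calls rest on the fit across genes, since for 3 libraries against 3 the smallest two-sided p of an exact permutation test is 0.1.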

How the data were processed

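The deposited table holds raw counts, which the authors made per the labels with Trim Galore 0.6.7, STAR 2.7.9a, HTSeq 0.11.3 and genome build GRCh38. The annotation release and the strand setting are not given in the sources used here. Its 67060 Ensembl identifiers were matched without version to GENCODE release 44 on GRCh38, and 60419 (90.1%) were found, the rest holding 0.153% of the counts. The 5 summary entries were left out of library sizes and tests, and reads assigned to no feature were 29.5% to 52.2% of the reads. Groups and replicate numbers came from the labels.

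Counts were filtered with filterByExpr, scaled by TMM and compared with the quasi-likelihood test of edgeR 4.0.16 in R 4.3.3 over all 24500 genes, with log values at a prior count of 2. The size of each log2 fold change divided by the square root of its F statistic gave the SE, and 95% intervals use the degrees of freedom of the fit. CPM per kb divides TMM-normalized CPM by the union of annotated exons. Named genes are *ESRRG*, the 10 genes, their further partners, the repressed, MLX partner and locus lists, up to 4 called genes per direction with the largest change among those of at least 50 mean counts in the other lists, and the 5 nearest profiles to *MYC*. *NCL*, *NPM1*, *TRRAP*, *SIN3A*, *FBXW7*, *GSK3B*, *FBL*, *LDHA*, *SLC16A1*, *CCND2*, *E2F2* and *SMARCB1* were named after their values were seen. A gene of the turnover list that this rule names is not reported here. The members and lists were chosen with earlier results of these data known, and the lists were written from general knowledge.

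Alternatives were DESeq2 1.42.0, RLE factors, library size only, both other count filters, no fold cutoff and a 2-fold one, protein-coding genes only, the replicate block, a GC and length correction by smooth curves (mgcv 1.9.3), both together, the share of reads assigned to no feature as a covariate and each of the 6 libraries left out. The fit was tested on simulated data. Tables and plots were made in Python 3.11.15 with matplotlib 3.10.9.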

Additional observations from a re-analysis of the deposited data

How the results depend on the processing

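*MYC*, *MLX* and *MYCN* kept their direction under all alternatives that gave a value, and so did *MAX*, *MXD3*, *MXD4*, *MGA* and *MLXIP*, which were not called as reported. *MYC* ran from 0.57 to 1.52 and *MLX* from 0.41 to 1.25 on the log2 scale, and *MYC* was called under 17 of 18 alternatives and *MLX* under 16 of 18, the exceptions being the share of reads assigned to no feature for both and the 2-fold cutoff for *MLX*. Where an alternative is itself a fold cutoff, only the cutoff changed. Fits with fewer genes or libraries also moved the fold changes, with *MYC* at 1.09 when fitted on protein-coding genes and 1.52 without Ad CMV 3xFlag-*Esrrg* replicate 2. For all changes other than those of the fold cutoff the cause was not tested.

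Replicate numbers 3 and 4 occur in both groups. The deviations of same-numbered libraries correlated at 0.075 for number 3 and -1.0e-04 for number 4. Pairs with unlike numbers ran from -0.13 to 0.14. The labels do not say what the numbers stand for. With 3 libraries per group these values cannot show whether same-numbered libraries share a culture or batch. Number 1 occurs only with Ad CMV GFP and number 2 only with Ad CMV 3xFlag-*Esrrg*. The replicate block therefore takes up these 2 libraries, and its fold changes rest on numbers 3 and 4 alone. It gave 4742 higher and 5693 lower genes in place of 4234 and 4117, with 2 members higher and 1 lower, and *MYC* at 1.33.

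Members called higher, against 2: 4 without a fold cutoff, 1 at a 2-fold cutoff, 0 with the share of reads assigned to no feature, and from 2 to 4 on leaving out 1 library (4 is without replicate 2 of Ad CMV 3xFlag-*Esrrg*). Members called lower, against 1: 2 each under total-count scaling, the GC and length correction, the replicate block added to it and the share, and 0 with at least 10 counts in every library, which removes *MYCN*. Activated targets higher, against 45: 27 under total-count scaling, 24 at a 2-fold cutoff and 23 with the share. Cofactors higher, against 8: 4 under total-count scaling, 13 without a fold cutoff, 3 at a 2-fold cutoff, 3 with the GC and length correction, 3 with the replicate block added and 2 with the share, and from 7 to 12 on leaving out 1 library. Turnover genes higher, against 4: 2 under total-count scaling, 11 without a fold cutoff, 2 at a 2-fold cutoff, 2 when fitted on protein-coding genes, 1 with the share, and from 2 to 8 on leaving out 1 library. Turnover genes lower, against 0: 3 under total-count scaling and 3 without a fold cutoff. All genes higher and lower, against 4234 and 4117: 2200 and 7566 under total-count scaling, 1952 and 1982 at a 2-fold cutoff, 2814 and 2468 when fitted on protein-coding genes, 1773 and 1323 with the share, and from 3710 to 5820 and from 2895 to 5141 on leaving out 1 library.

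Reversed signs, none of them called, were these. *MYCL* (0.015) was -0.30 under total-count scaling, -0.12 when fitted on protein-coding genes, -0.16 with the replicate block, -0.38 with the GC and length correction, -0.65 with the replicate block added and from -0.13 to 0.30 on leaving out 1 library. *MXD1* (0.12) was -0.20 under total-count scaling and -0.021 when fitted on protein-coding genes. *MNT* (-0.019) was 0.077 with DESeq2, 0.063 with RLE factors and from -0.13 to 0.16 on leaving out 1 library, and *MXI1* (-0.12) from -0.15 to 0.034. Per length, the longest transcript in place of the exon union changed the scale of both groups alike. TPM in place of CPM per kb also turned the direction between Ad CMV GFP and Ad CMV 3xFlag-*Esrrg* for *MAX* (30.1 to 26.8), *MXD4* (32.9 to 29.2), *MXD1* (4.80 to 3.37) and *MYCL* (0.277 to 0.192). Low counts limit *MYCN*, *MYCL*, *MLXIPL* and the locus RNAs, with at most 24 counts per library except for *PVT1*.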
